A study of Mus musculus with 7 samples.

Results

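Cathepsins are the proteases of the lysosome, and cystatin C is the secreted protein that blocks the cysteine type. The genes described here are 9 cathepsins (Ctsa, Ctsb, Ctsc, Ctsd, Ctsh, Ctsk, Ctsl, Ctss and Ctsz) and the cystatin C gene Cst3, picked by symbol from the gene tables, 10 of 21878 genes listed. All 10 had counts well above the filter on low values and were among the 14609 genes tested. RNA came from the abdominal aorta of C57BL/6 males, 8 weeks old per the labels, that received angiotensin II (Ang II), a pressor peptide used to induce aortic aneurysm, for at most 28 days. There were 4 libraries labelled ApoE-/-Nur77-/- (DKO 1 to DKO 4) and 3 libraries labelled ApoE-/- (ApoE 1 to ApoE 3). Every animal was thus labelled as lacking ApoE, an apolipoprotein that clears lipoproteins from blood, and every animal had Ang II, so no group stands for an untreated or a wild-type aorta. Nur77 is the nuclear receptor made from Nr4a1. Which part of either gene was deleted is not given in the labels. The labels tie no library to a particular animal, so p-values measure the spread between these libraries.

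Lysosomal cathepsins are made as inactive precursors, carried to the lysosome by mannose 6-phosphate receptors and activated in its acid interior. Cells that engulf material, macrophages above all, make much of them. Some are also secreted, and cathepsins S, K and L can then cut elastin and collagen outside the cell, which is why they are studied in atherosclerosis and aortic aneurysm. Cystatin C, present in most body fluids, binds the active site of the cysteine cathepsins and has no action on cathepsin A, a serine protease, or cathepsin D, an aspartic one.

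Library totals ran from 19295287 to 21727192 counts over all genes. Both genes named as deleted were still read in every library. Which part was deleted is not given, so the reads do not settle the genotypes. Nr4a1 was lower on average in the libraries labelled ApoE-/-Nur77-/-, with overlap (log2 fold change -0.75 ± 0.42 SE, adjusted p = 0.360 by edgeR). Nr4a1 was still read at 46.2, 57.0, 90.1 and 92.7 CPM (counts scaled to the TMM-adjusted library size) in DKO 1 to DKO 4, against 193, 56.4 and 111 CPM in ApoE 1 to ApoE 3. Apoe was read at 18.3 to 34.7 CPM in the libraries labelled ApoE-/-Nur77-/- and at 184 to 250.3 CPM in those labelled ApoE-/-. The groups thus differed in Apoe without overlap, although both were labelled as lacking ApoE (log2 fold change -2.95 ± 0.23 SE, adjusted p = 0.0227 by edgeR). Directions below are thus between libraries as they were labelled, whatever their genotype. Smooth muscle markers were read in every library, with Acta2 at 3016 to 11779 CPM in the libraries labelled ApoE-/-Nur77-/- and 6119.6 to 9189.9 CPM in those labelled ApoE-/-. Such markers do not by themselves identify the labelled tissue. Markers of atrial heart muscle, 6 of 7 tested and 0 called, summed to 19.0 to 44.8 CPM in DKO 1 to DKO 4, against 42.1, 349 and 1271 CPM in ApoE 1 to ApoE 3. Myl7, a defining gene of that list, was at 0 in DKO 4 and ApoE 1.

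Cst3 and Ctsd were the most abundant transcripts of the family, and Ctsc the least. Levels of different genes were compared in FPKM, the deposited values that are scaled for gene length and depth. Cst3 averaged 1449 ± 282 FPKM (SD, n = 4) in the libraries labelled ApoE-/-Nur77-/- and 2139 ± 415 FPKM (SD, n = 3) in those labelled ApoE-/-. Ctsd, the main aspartic protease of the lysosome, averaged 1145 ± 374 and 914 ± 118 FPKM in the same groups, and Ctsb, a cysteine protease with both endopeptidase and carboxydipeptidase action, averaged 617 ± 181 and 497 ± 81.8 FPKM. These 3 genes stood within the top 0.475% of the table in every library. The order then ran Ctss, Ctsl, Ctsz, Ctsh, Ctsa, Ctsk and Ctsc. Ctss averaged 380.3 ± 142 FPKM against 287 ± 92.4 FPKM, Ctsk 52.0 ± 18.2 against 52.6 ± 2.42 FPKM, and Ctsc 26.6 ± 4.77 against 17.4 ± 4.83 FPKM.

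Some neighbours in that order could not be ranked beyond their spread. Cst3 lay above Ctsd in 6 of 7 libraries, with DKO 1 the exception, at 1262 FPKM for Cst3 and 1284 FPKM for Ctsd. Ctss lay above Ctsl in 6 of 7 libraries and Ctsl above Ctsz in 5 of 7. All other neighbours kept their order in 7 of 7 libraries, and the ranges of Ctsz, Ctsh and Ctsa over the libraries did not meet. As a share of the summed FPKM of the 9 cathepsins, Ctsd held 35.1% to 41.4% in the libraries labelled ApoE-/-Nur77-/- and 35.9% to 39.5% in those labelled ApoE-/-. Ctsb held 20.9% to 21.3% and 18.9% to 21.4%. The shares of both genes overlapped between groups.

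**Figure D1:**
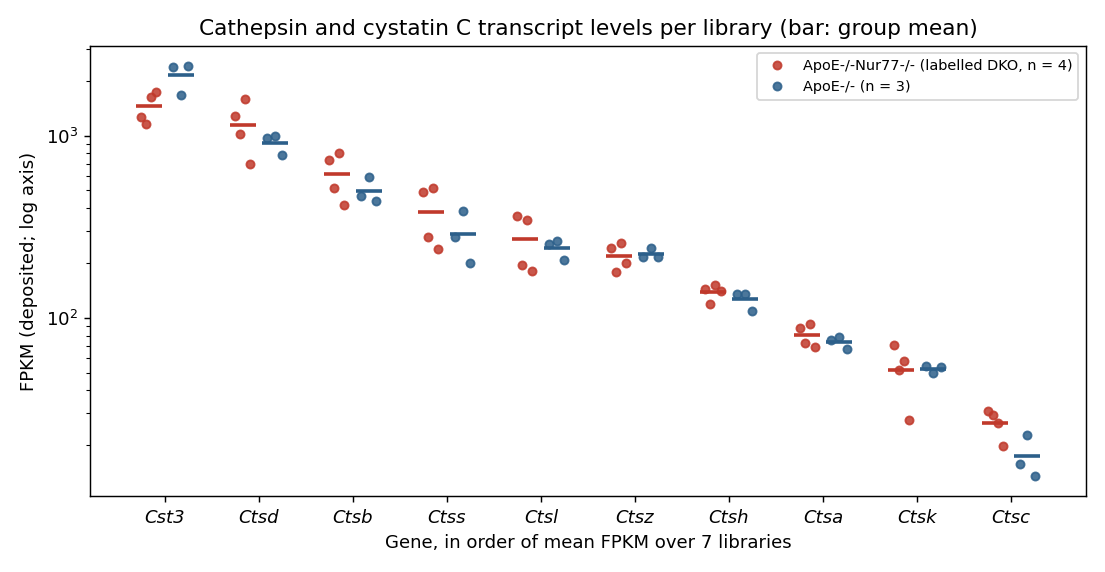
FPKM of each gene (log axis) in each library, with libraries labelled ApoE-/-Nur77-/- in red at the left of each pair and those labelled ApoE-/- in blue at the right; bars are group means. Points of the groups overlap for every gene, and Cst3 (1158 to 1742 FPKM against 1660 to 2393 FPKM) and Ctsc (19.9 to 30.7 FPKM against 13.6 to 22.9 FPKM) overlap through few libraries.

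No member passed the test between groups. With edgeR's quasi-likelihood test, adjusted over all genes by the Benjamini-Hochberg method at a threshold of 0.05, 0 of the 10 members were called, beside 0.0274% of all genes tested (4 genes, all lower). At an unadjusted p under 0.05 there were 2 members, Ctsc with a positive and Cst3 with a negative fold change, beside 19.8% of all genes, so the share of members was near the background. Positive fold changes were seen in 7 members, beside 47.4% of all genes. CPM values overlapped between groups for all 10, while 16.3% of all genes did not overlap (7.08% higher and 9.24% lower). The median log2 fold change (libraries labelled ApoE-/-Nur77-/- over those labelled ApoE-/-) was 0.09 for the 9 cathepsins, against -0.02 for all genes tested. DESeq2's Wald test called 1 member, Ctsc (adjusted p = 0.0431), and limma voom with quality weights called 2, Ctsc (adjusted p = 0.0305) and Cst3 (adjusted p = 0.0443). The voom weights were 0.41 for DKO 4, 0.67 for ApoE 2 and ApoE 3, and 0.87 to 2.81 for the others. DKO 4 and ApoE 2 were the libraries through which the groups overlapped for Ctsc and Cst3. Over all genes DESeq2 called 453 higher and 679 lower of the 21878 genes given to it. Of 14609 genes, voom called 902 higher and 1467 lower. The member calls of these methods thus came with many others and were not particular to the members.

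**Figure D2:**
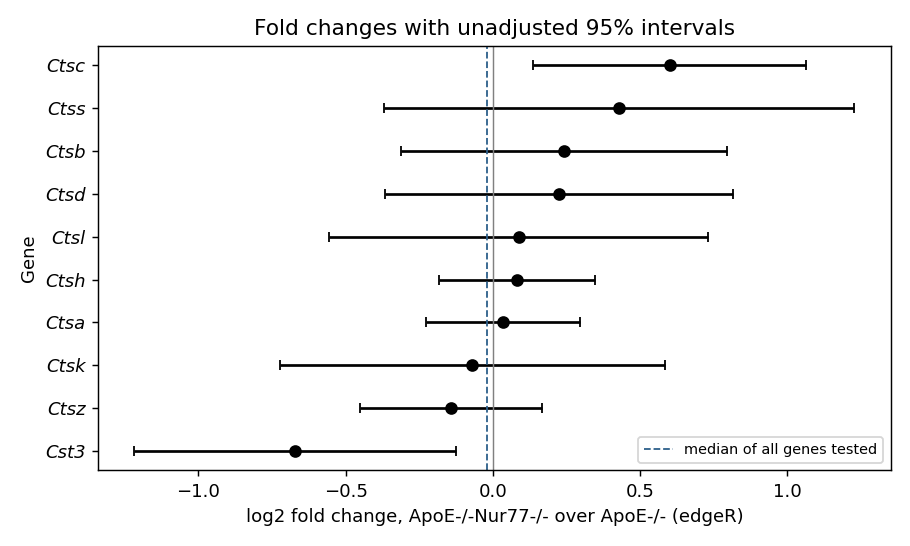
Log2 fold change of each gene, libraries labelled ApoE-/-Nur77-/- over libraries labelled ApoE-/-, with its 95% interval unadjusted for the number of genes; the dashed line is the median of all genes tested. Only the intervals of Ctsc (0.14 to 1.06) and Cst3 (-1.22 to -0.13) lie clear of 0, and neither gene passed after adjustment.

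Cst3, the inhibitor, had the most negative fold change of the family. The gene lies on chromosome 2 (148871722 to 148875512, RefSeq on GRCm38.p6). It was read at 932, 879, 1224 and 1395 CPM in DKO 1 to DKO 4, against 1939.5, 1273 and 2080.5 CPM in ApoE 1 to ApoE 3. ApoE 1 and ApoE 3 lay above all libraries labelled ApoE-/-Nur77-/-, while ApoE 2 lay between DKO 3 and DKO 4. The means were 1107 ± 244 CPM (SD, n = 4) and 1764 ± 431 CPM (SD, n = 3), a 1.59-fold lower mean level in the fit (log2 fold change -0.67 ± 0.23 SE; adjusted p = 0.1895 by edgeR). Without 1 library at a time the log2 fold change ran between -0.86, without ApoE 2, and -0.54, without ApoE 3, with adjusted p from 0.0822 to 0.536. Without ApoE 2 and ApoE 3, the libraries with atrial markers, it was -0.81 (adjusted p = 0.559, with 1 library left in that group and assumed to vary like the others).

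White adipocyte markers, like Cst3, had negative fold changes. White adipocyte markers, 5 of 5 tested and none at 0, summed to 664 to 976 CPM in the libraries labelled ApoE-/-Nur77-/- and to 1363 to 1605 CPM in those labelled ApoE-/-. Of the 13 marker lists, the white adipocyte list had the profile over the 7 libraries nearest to that of Cst3. The root mean square difference between centred levels was 0.31 on the log2 scale. The fibroblast list (0.35) and the smooth muscle list (0.38) came next, and the brown adipocyte list was 6th (0.60). In DKO 3 the centred level was -0.69 for the white adipocyte list and -0.12 for Cst3, so the profiles parted there. Fibroblast markers, 6 of 6 tested and none at 0, had 2 positive and 4 negative fold changes (median -0.27). They summed to 3802 to 4870 CPM and 5265 to 6117 CPM. Their sum was lowest in DKO 4, which had the highest Cst3 level of the libraries labelled ApoE-/-Nur77-/-. The 3 brown adipocyte markers summed to 145 to 392.1 CPM and 454 to 1397 CPM. No gene of these lists was called, and their part in the Cst3 values was not tested. In RNA from whole tissue, fewer cells of a type and less RNA per cell cannot be told apart.

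Ctsc had the most positive fold change. It encodes dipeptidyl peptidase 1, the cysteine cathepsin that activates the serine proteases of granules in neutrophils, mast cells and cytotoxic lymphocytes, and lies on chromosome 7 (88278024 to 88315861). Ctsc was read at 338, 306, 293 and 220.0 CPM in DKO 1 to DKO 4, against 191, 234 and 147 CPM in ApoE 1 to ApoE 3. Only DKO 4 and ApoE 2 kept the groups from separating. The means were 289 ± 49.7 CPM (SD, n = 4) and 191 ± 43.3 CPM (SD, n = 3), with a log2 fold change of 0.60 (SE 0.20, edgeR adjusted p = 0.179). The estimate ran from 0.44 without ApoE 3 to 0.77 without ApoE 2.

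Of 8 genes for proteases that Ctsc activates, 7 were tested and 0 were called. Positive fold changes were seen in 2 (Gzma, 0.61, and Elane, 0.19, on the log2 scale) and negative ones in 5, beside 47.4% positive over all genes, and the median was -0.31. Mcpt4, which encodes a mast cell chymase, had the smallest p of them, at 6.13, 7.97, 8.35 and 13.9 CPM against 13.7, 20.1 and 14.5 CPM (log2 fold change -0.83 ± 0.29 SE; adjusted p = 0.1903 by edgeR), and it is also 1 of the 4 mast cell markers. The neutrophil protease gene Elane stood at 2.63 CPM in DKO 1 and between 0.094 and 0.735 CPM in the other 6 libraries. Ctsg, also on that list, did not pass the filter on low counts. Neutrophil markers, 5 of 6 tested, summed to 91.7 CPM in DKO 1, 6.08 to 26.2 CPM in DKO 2 to DKO 4, and 5.13 to 23.5 CPM in the libraries labelled ApoE-/-, and Camp was at 0 in ApoE 3. Mast cell markers, 4 of 4 tested and 0 called, summed to 39.2 to 56.9 CPM and 40.6 to 52.0 CPM. Behind these sums the list was split, with 1 positive and 3 negative fold changes (median -0.63). Kit was the positive one (0.72 on the log2 scale), with a mean of 31.1 CPM in the libraries labelled ApoE-/-Nur77-/- and 18.9 CPM in the others. Cpa3 (-0.44) and Fcer1a (-0.86) were negative, as was Mcpt4.

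Ctsb, Ctsd, Ctss and Ctsl had DKO 1 and DKO 3 as their highest libraries. Ctss encodes a cysteine cathepsin that stays active near neutral pH and trims the invariant chain of MHC class II. Ctss was read at 1179, 679, 1230.5 and 546 CPM in DKO 1 to DKO 4, against 658, 881 and 485 CPM in ApoE 1 to ApoE 3. DKO 1 and DKO 3 were high and DKO 2 and DKO 4 lay within the range of the libraries labelled ApoE-/-. Its log2 fold change was 0.43 (SE 0.34; adjusted p = 0.5100 in edgeR), and it was 0.24 without ApoE 3, 0.25 without DKO 3 and 0.67 without ApoE 2.

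Ctsb (chromosome 14, 63122462 to 63145923) was read at 3861, 2712, 4308 and 2369.8 CPM in DKO 1 to DKO 4 and at 2757, 3119.8 and 2534 CPM in ApoE 1 to ApoE 3 (log2 fold change 0.24 ± 0.24 SE; adjusted p = 0.599 by edgeR). Ctsd (chromosome 7, 142375910 to 142387827) was read at 3126, 2569, 3935 and 1863 CPM against 2657, 2513 and 2208 CPM (log2 fold change 0.22 ± 0.25 SE; adjusted p = 0.6503 by edgeR). Ctsl, an endopeptidase gene on chromosome 13 (64361890 to 64370772), was read at 1414, 745, 1361 and 743 CPM against 1113.5, 1012 and 883 CPM. For these 3 genes DKO 4 was the lowest library of all, so the libraries labelled ApoE-/- lay inside the range of those labelled ApoE-/-Nur77-/-. The edgeR estimate for Ctsl was 0.09 on the log2 scale (SE 0.28; adjusted p = 0.893), which turned to -0.055 without DKO 1 and -0.052 without DKO 3. That of Ctsb ran from 0.09 to 0.37 and that of Ctsd from 0.04 to 0.38 with 1 library left out at a time.

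Macrophage markers moved with these cathepsins. DKO 1 and DKO 3 were the top pair of libraries for 6 of the 10 members, for 12 of 14 macrophage markers and for 15 of 27 other lysosomal hydrolases, against 11.2% of all genes tested. All 14 macrophage markers were tested, none was at 0, all 14 had positive fold changes and 0 were called. Their sum was 5388.5, 4035 and 6285 CPM in DKO 1 to DKO 3 and 3271 CPM in DKO 4, against 3866, 4348.5 and 2969 CPM in ApoE 1 to ApoE 3. The macrophage list had the nearest profile of the 13 marker lists for Ctsb (root mean square difference 0.13), Ctsd (0.17), Ctss (0.19) and Ctsc (0.19), and the second nearest for Ctsl (0.27, after the dendritic cell list at 0.25). Dendritic cell markers, 6 of 6 tested, summed to 484 to 687 CPM and 417 to 627 CPM. T and NK cell markers, 6 of 6 tested, all with positive fold changes (median 0.78), 0 called and none at 0, summed to 31.7, 21.7, 49.8 and 21.3 CPM in DKO 1 to DKO 4, against 20.0, 27.4 and 11.0 CPM in ApoE 1 to ApoE 3, and were the third nearest list to Ctss (0.28) and the fourth nearest to Ctsc (0.34). Smooth muscle markers, 6 of 6 tested, had none with DKO 1 and DKO 3 on top and summed to 7924 CPM in DKO 1 and 28720.0 CPM in DKO 4, against 15041 to 23452 CPM in the libraries labelled ApoE-/-. The part of these cell types in the cathepsin values was not tested.

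**Figure D3:**
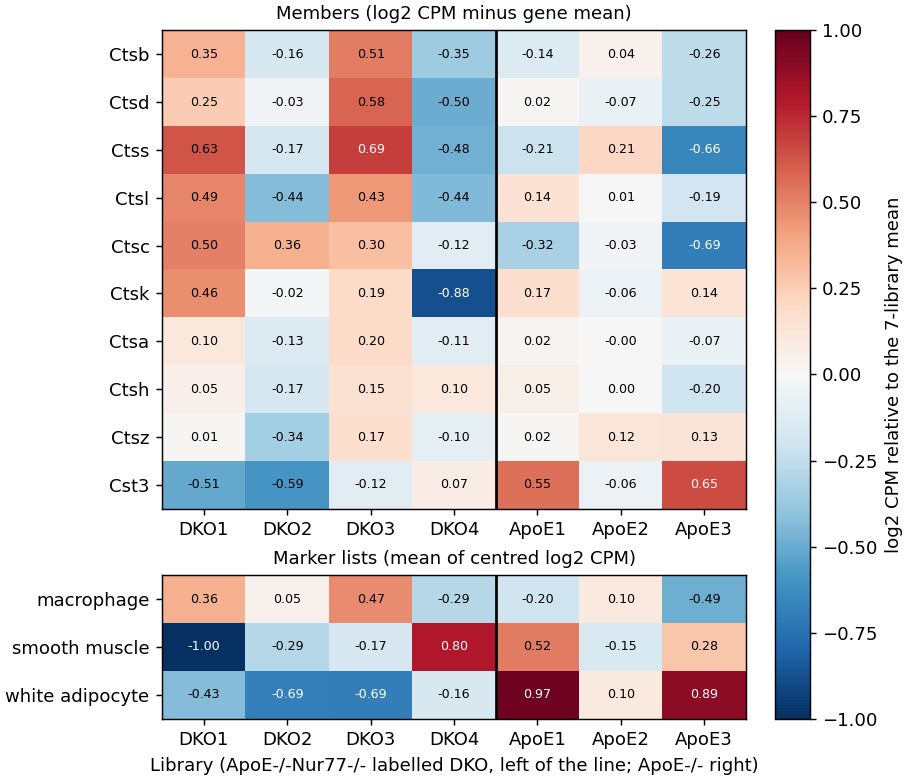
Log2 CPM of each gene relative to its mean over the 7 libraries (upper panel) and the same averaged over 3 marker lists (lower panel), with libraries labelled ApoE-/-Nur77-/- left of the line and those labelled ApoE-/- right of it; red is above and blue below the mean. Ctsb, Ctsd, Ctss and Ctsl are raised in DKO 1 and DKO 3 and lowered in DKO 4, as is the macrophage row. Ctss (-0.66) and the macrophage row (-0.49) are lowest in ApoE 3, and Ctsl is as low in DKO 2 (-0.44) as in DKO 4 (-0.44). Cst3 is raised in ApoE 1 and ApoE 3, as is the white adipocyte row.

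Ctsk shared the top pair DKO 1 and DKO 3, and its nearest members were Ctsd (0.27) and Ctsl (0.28). It encodes the collagen- and elastin-degrading cathepsin best known from osteoclasts and lies on chromosome 3 (95499210 to 95509387), 17398 bases before Ctss (95526786 to 95556405). Ctsk was read at 194, 139, 160.4 and 76.4 CPM in DKO 1 to DKO 4, against 158, 135 and 155 CPM in ApoE 1 to ApoE 3. DKO 4 was the lowest library and DKO 1 the highest, and the libraries labelled ApoE-/- lay between them. The means were 142 ± 49.4 CPM (SD, n = 4) and 149 ± 12.2 CPM (SD, n = 3), and Ctsk had the widest range within the libraries labelled ApoE-/-Nur77-/- of any member (1.34 on the log2 scale). Its log2 fold change was -0.07 (SE 0.28; adjusted p = 0.915 in edgeR) and 0.14 without DKO 4. The neighbours on chromosome 3 did not keep a fixed ratio, since Ctss FPKM per Ctsk FPKM was 6.90, 5.38, 8.85 and 8.71 in DKO 1 to DKO 4 and 5.07, 7.70 and 3.74 in ApoE 1 to ApoE 3.

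Osteoclast markers other than Ctsk went in both directions. Of 7 listed, 5 were tested and 0 were called, Calcr was at 0 in every library, and Oscar did not pass the filter. Ocstamp and Dcstamp, which osteoclasts need to fuse, were at 0.614 to 1.87 and 0.358 to 2.68 CPM in the libraries labelled ApoE-/-Nur77-/-, against 0.414 to 1.04 and 0.218 to 0.595 CPM in those labelled ApoE-/-. Acp5, the acid phosphatase of osteoclasts and macrophages, was at 123 to 173 CPM against 160.5 to 189.8 CPM (log2 fold change -0.17), and Nfatc1, a transcription factor gene, at 41.3 to 57.6 CPM against 47.2 to 56.5 CPM (-0.07). Mmp9, a gelatinase gene, was at 66.9, 15.99, 9.81 and 8.08 CPM in DKO 1 to DKO 4, against 4.96, 11.1 and 4.25 CPM in ApoE 1 to ApoE 3. The marker list nearest to the Ctsk profile was the fibroblast list (0.31), with the macrophage list next (0.38).

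Ctsa, Ctsh and Ctsz were the steadiest members. Ctsa encodes the serine carboxypeptidase that also shields the lysosomal enzymes Neu1 and Glb1, and lies on chromosome 2 (164832872 to 164841032). It was read at 392.2, 333, 418 and 338 CPM in DKO 1 to DKO 4, against 372, 364 and 348 CPM in ApoE 1 to ApoE 3. Ctsh, an aminopeptidase gene on chromosome 9 (90054267 to 90076095), was read at 345, 297, 369 and 358 CPM against 346, 334 and 291 CPM. Both sets of values overlapped throughout, and the coefficient of variation over the 7 libraries was 8.37% for Ctsa and 8.96% for Ctsh, against 36.9% for Ctss.

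Ctsz, a carboxypeptidase gene on chromosome 2 (174427494 to 174439039), was read at 453, 354, 503 and 419 CPM in DKO 1 to DKO 4 and at 454, 488 and 489.6 CPM in ApoE 1 to ApoE 3. DKO 2 was the lowest library for it. The 95% intervals of the log2 fold change were -0.23 to 0.30 for Ctsa, -0.18 to 0.35 for Ctsh and -0.45 to 0.17 for Ctsz, all of them narrower than those of Ctsb, Ctsd, Ctss, Ctsl and Ctsk.

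Pairs of members were alike to different degrees. The nearest pairs were Ctsa with Ctsh (root mean square difference of centred log2 CPM 0.10), Ctsb with Ctsd (0.11) and Ctsa with Ctsz (0.12). This difference is not scaled to a gene's own spread, so steady genes lie near one another whatever their pattern. The coefficient of variation was 8.37% for Ctsa, 8.96% for Ctsh and 11.4% for Ctsz, against 23.5% for Ctsb and 24.9% for Ctsd. Cst3 was farthest from Ctss (0.83) and Ctsc (0.82). Among 10369 other genes with a mean of at least 10 CPM, those nearest to Ctss over the 7 libraries were Irf8 (0.092), Tlr7 (0.102) and Galnt6 (0.104). Those nearest to Ctsk were Mmp2 (0.131), Ednra (0.164) and 2810474O19Rik (0.166), those nearest to Ctsl were Lgals3 (0.084), Wdr91 (0.128) and Prkch (0.135), and those nearest to Cst3 were Inafm1 (0.055), 2310039H08Rik (0.056) and Ccs (0.098).

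Per unit of Cst3 transcript, cathepsin transcripts were highest in DKO 1 to DKO 3. The 9 cathepsins summed to 3443, 2456, 3827 and 1994 FPKM in DKO 1 to DKO 4, against 2469, 2755 and 2079.5 FPKM in ApoE 1 to ApoE 3. Divided by Cst3 FPKM, this gave 2.73, 2.12, 2.34 and 1.14, against 1.04, 1.66 and 0.869. DKO 4 lay below ApoE 2, so the groups overlapped. With only the 7 cysteine cathepsins, which cystatin C can bind, the ratios were 1.64, 1.18, 1.32 and 0.703, against 0.600, 1.02 and 0.515. These are ratios of transcripts, with no test, and they do not measure protein or protease activity.

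**Figure D4:**
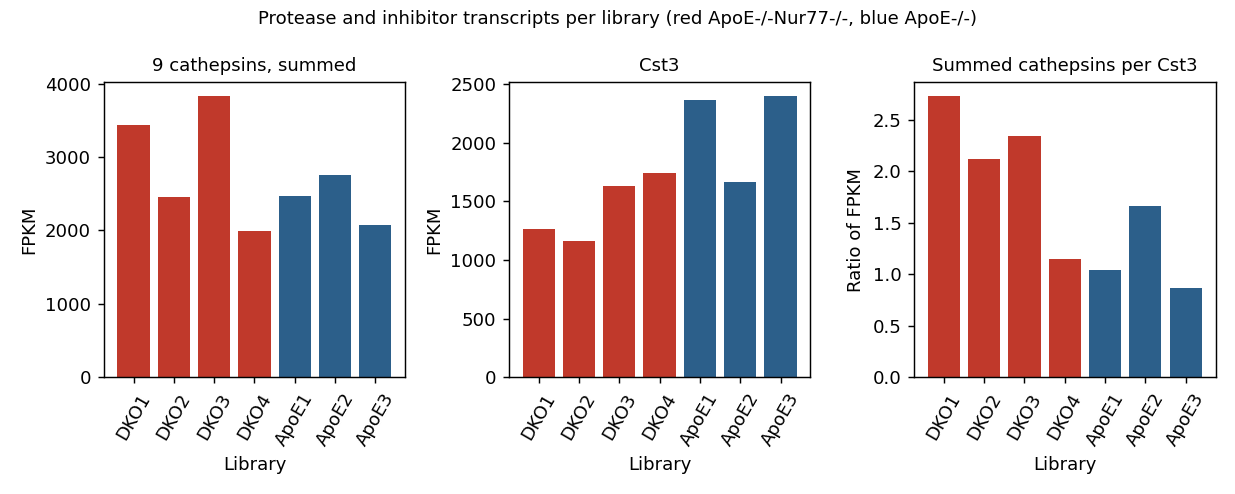
Summed FPKM of the 9 cathepsins, FPKM of Cst3 and their ratio in each library, with libraries labelled ApoE-/-Nur77-/- in red and those labelled ApoE-/- in blue. The ratio is 2.12 to 2.73 in DKO 1 to DKO 3, 1.14 in DKO 4 and 0.869 to 1.66 in the libraries labelled ApoE-/-.

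Promoter sequence was searched for every member with a window in the table used. RefSeq windows on GRCm38.p6 were matched for 8 members (9 windows, since Ctsa has a pair of starts); Ctsb and Ctsh are named only. The 250 bases before the start used for each window were searched on both strands for CACGTG, the E-box core of the motif of lysosomal genes, for its longer form TCACGTG, which overlaps it, and for TGACTCA, the AP-1 motif. CACGTG was found in 3 of the 9 windows, 98 and 245 bases before the Ctsd start, 236 bases before the start of the Ctsl window's transcript and 12 bases before the second Ctsa start, against 6.02% of 32851 windows of that length. The window starts need not be the ends of the gene coordinates given above: the Ctsl window lies wholly inside them, as does the second Ctsa window, and the Ctsc window reaches into them. TCACGTG was found in the windows of Ctsd and Ctsa, against 3.13% of all windows, and TGACTCA in 0 of the 9, against 4.46%. The windows of Ctsd (chr7:142387828-142388077, minus strand), Ctss (chr3:95526536-95526785, plus strand) and Cst3 (chr2:148875513-148875762, minus strand) which lie outside the genes' coordinates and show a protease with the match, a protease without it and the inhibitor, are printed 5′ to 3′, ending at the base before the start, with CACGTG in capitals. A match is a string of letters, not a shown binding site.
Ctsd: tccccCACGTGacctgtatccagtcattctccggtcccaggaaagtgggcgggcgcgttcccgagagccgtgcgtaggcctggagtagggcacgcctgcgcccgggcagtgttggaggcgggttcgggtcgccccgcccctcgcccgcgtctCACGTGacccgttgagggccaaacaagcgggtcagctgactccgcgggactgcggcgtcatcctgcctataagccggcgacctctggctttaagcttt
Ctss: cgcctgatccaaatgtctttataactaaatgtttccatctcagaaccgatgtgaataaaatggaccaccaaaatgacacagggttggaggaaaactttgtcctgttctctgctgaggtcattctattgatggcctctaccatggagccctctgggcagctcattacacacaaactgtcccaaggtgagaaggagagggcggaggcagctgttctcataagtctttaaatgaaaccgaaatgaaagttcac
Cst3: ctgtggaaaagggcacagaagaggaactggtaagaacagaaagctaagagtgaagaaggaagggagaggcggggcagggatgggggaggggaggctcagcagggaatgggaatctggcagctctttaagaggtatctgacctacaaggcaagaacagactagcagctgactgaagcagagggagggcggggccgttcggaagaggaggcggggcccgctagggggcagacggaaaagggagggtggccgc

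Genes that sort, activate or work beside the cathepsins showed 0 calls in any list. Of 10 sorting and activation genes, all tested, 6 had positive and 4 negative fold changes (median 0.14). Igf2r, the large mannose 6-phosphate receptor, had the smallest p, with 253, 279, 252 and 242 CPM in DKO 1 to DKO 4, all above the 181, 183 and 189 CPM of ApoE 1 to ApoE 3 (log2 fold change 0.48 ± 0.08 SE; adjusted p = 0.120 by edgeR). The 27 other lysosomal hydrolases had 19 positive and 8 negative fold changes (median 0.15), with Manba, a mannosidase gene, at the smallest p (log2 fold change 0.26 ± 0.09 SE; adjusted p = 0.1804 by edgeR).

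Of 16 subunit genes of the V-ATPase, the proton pump that acidifies lysosomes, 4 were positive and 12 negative (median -0.09), and 5 did not overlap between groups, all lower, where 9.24% of all genes were lower without overlap. Atp6v0d1 had the smallest p among them (log2 fold change -0.27 ± 0.08 SE; adjusted p = 0.166 by edgeR). Lysosomal membrane genes had 6 positive and 5 negative of 11 (median 0.0074), and Mcoln1, a lysosomal calcium channel gene, had a log2 fold change of -0.26 (SE 0.08, edgeR adjusted p = 0.163). Tfeb, the master regulator of lysosomal genes, was at 27.4, 23.2, 29.7 and 33.3 CPM against 44.5, 32.4 and 41.7 CPM (log2 fold change -0.48 ± 0.16 SE; adjusted p = 0.179 by edgeR), the groups meeting at DKO 4 and ApoE 2. Its relatives Tfe3 (0.02), Mitf (0.17) and Tfec (0.70) had positive log2 fold changes.

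**Figure D5:**
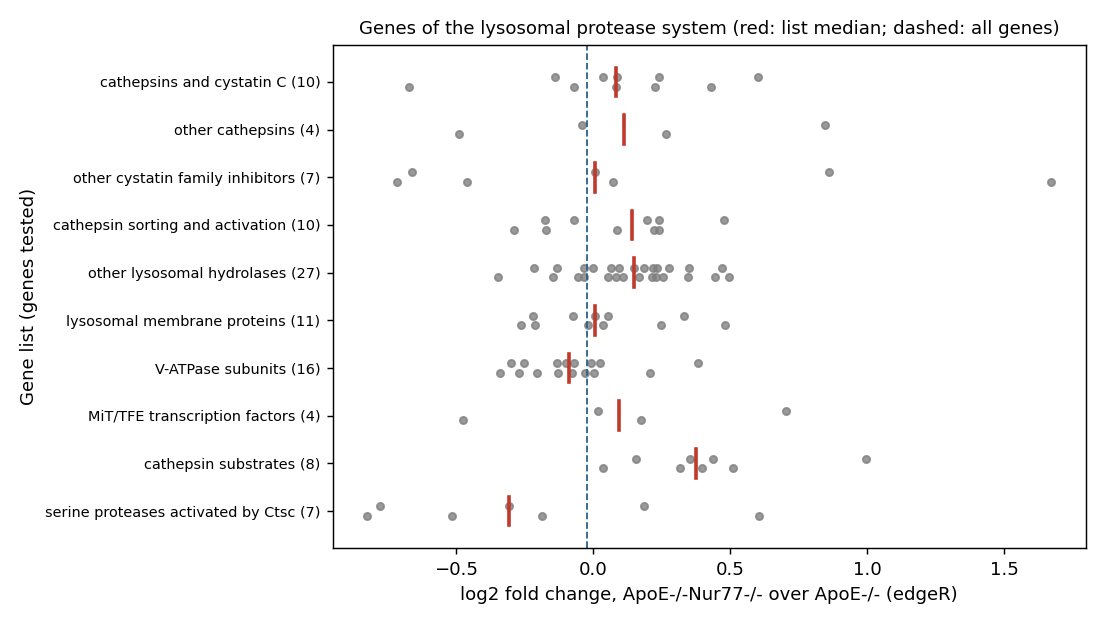
Log2 fold change of each tested gene (grey points; libraries labelled ApoE-/-Nur77-/- over those labelled ApoE-/-) in lists of the cathepsin system, with the list median in red and the median of all genes tested as the dashed line. List medians lie between -0.31 (serine proteases activated by Ctsc) and 0.38 (cathepsin substrates), and no gene shown passed the test.

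Few of the other cathepsin and cystatin genes could be tested. Of 14 other cathepsin genes, 8 had 0 counts in every library and 4 were tested. Ctsf, a cysteine cathepsin gene, was at 50.3, 47.8, 55.8 and 57.4 CPM in DKO 1 to DKO 4, all below the 81.9, 59.8 and 80.9 CPM of ApoE 1 to ApoE 3 (log2 fold change -0.49 ± 0.13 SE; adjusted p = 0.158 by edgeR). Ctso had a log2 fold change of -0.04 (SE 0.08), Ctsw 0.27 (SE 0.33) and Ctse 0.85 (SE 0.60), the last at no more than 1.60 CPM. Of 18 other cystatin family genes 7 were tested, 4 positive and 3 negative (median 0.0046). Kng1, a kininogen gene, had the smallest p, at 4.55, 2.48, 3.11 and 0.869 CPM against 1.34, 1.01 and 0.218 CPM (log2 fold change 1.67, SE 0.71, adjusted p = 0.252 in edgeR). The other kininogen gene listed, Kng2, was more abundant and had a negative fold change. It was at 13.3 to 29.7 CPM against 22.8 to 32.1 CPM (log2 fold change -0.46, SE 0.30, adjusted p = 0.417 in edgeR). Cstb, the inhibitor inside cells, was at 95.8, 69.1, 90.9 and 70.6 CPM against 80.5, 79.9 and 72.2 CPM. Cst7, an inhibitor of immune cells that acts on cathepsin C, was at 2.73, 1.03, 1.78 and 1.18 CPM against 0.595, 1.61 and 0.545 CPM (log2 fold change 0.86 ± 0.54 SE; adjusted p = 0.401 by edgeR).

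Genes of known cathepsin substrates were all positive, with 0 of 8 called and a median of 0.38, beside 47.4% positive over all genes. The libraries did not rise together. Col1a1, Col1a2 and Acan were highest in DKO 2 (15573, 11288 and 201 CPM). In DKO 4 they were at 6551, 4469 and 35.5 CPM, below every library labelled ApoE-/-. Sparc had a log2 fold change of 0.04 (SE 0.16). Eln, the elastin gene, was at 3326, 9443, 6303 and 7773 CPM in DKO 1 to DKO 4, against 4135, 2783 and 3180.0 CPM in ApoE 1 to ApoE 3 (log2 fold change 1.00 ± 0.36 SE; adjusted p = 0.196 by edgeR). DKO 1 lay within the range of the libraries labelled ApoE-/-, while DKO 2 to DKO 4 lay above it. Fn1, the fibronectin gene, was at 11399 to 16413 CPM against 9174 to 11157 CPM without overlap (log2 fold change 0.44 ± 0.19 SE; adjusted p = 0.263 by edgeR). Cd74, the invariant chain that Ctss trims, was at 1141, 902, 1297 and 1269.6 CPM against 1134, 1206 and 762 CPM (log2 fold change 0.16 ± 0.20 SE; adjusted p = 0.706 by edgeR), and it did not share the low DKO 4 value of Ctss.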

How the data were processed

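Strand-marking mRNA libraries were made per the labels' protocols. Trimmomatic, HISAT2, HTSeq, Cufflinks and DESeq, with build GRCm38.p6, are named per the submitters' processing notes, with no roles. Tool versions and the strand setting of the counting step are not known here. Gene counts were used as deposited, not normalized. FPKM values were scaled by the authors for gene length and depth, as deposited. Columns were matched to samples by genotype and number, and 27 symbols turned into dates were restored through gene identifiers.

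Counts were filtered (edgeR filterByExpr, minimum count 10), TMM-normalised and tested with edgeR 4.0.16 in R 4.3.3 on 4 libraries labelled ApoE-/-Nur77-/- and 3 labelled ApoE-/-, calling genes at an adjusted p under 0.05. The SE of a log2 fold change was taken as its size divided by the root of the F statistic. Likeness is the root mean square difference of centred log2 CPM (prior count 2), not scaled to each gene's spread. Coordinates are RefSeq's. The test was tried on simulated data. Alternatives used limma 3.58.1, DESeq2 1.42.0, other filters, RLE size factors and left-out libraries. The members and lists were chosen with earlier results of these data known; named genes were all members, the gene of smallest p in each pathway list, any gene of pathway lists with up to 8 genes tested, any gene of a marker list, the 3 nearest genes of Ctss, Ctsk, Ctsl and Cst3, and Nr4a1 and Apoe.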

Additional observations from a re-analysis of the deposited data

How the results depend on the processing

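Over 17 alternatives, 162 of 170 member fold changes kept their direction, and 3 were called, Ctsc with DESeq2 and with voom and Cst3 with voom. Members called numbered 1 with DESeq2, 2 with voom and 0 in all others, each left-out library included (0 to 0). Genes called higher numbered 453 with DESeq2, 902 with voom and 1 with limma on log2(FPKM + 1) or log2(FPKM + 0.1), and genes called lower numbered 679 with DESeq2, 1467 with voom, and 0 with unfiltered FPKM or without ApoE 2 and ApoE 3 together. Without 1 library at a time there were 0 to 4 higher and 0 to 2 lower. Directions turned without ApoE 2 and ApoE 3 together, which leaves 1 library in that group, assumed to vary like the others, for Ctsl (-0.066), Ctsa (-0.0080) and Ctsh (-0.018). With 1 library left out at a time the log2 fold change ran from -0.055 (without DKO 1) to 0.25 for Ctsl, from -0.028 (without DKO 3) to 0.10 for Ctsa and from -0.23 to 0.14 (without DKO 4) for Ctsk. The cause of these changes was not tested. With the replicate number as a block, Ctsk turned to 0.13 and 0 genes were called lower. Same-numbered libraries were mixed in how they deviated together (correlation of deviations -0.39, 0.70 and 0.004). DKO 2 and ApoE 2, at 0.70, had the highest value of any pair across groups. Not every library correlated best with its own number, so the numbers were not taken to pair them. Counting error was small beside the spread between libraries for the members, whose lowest count was 1495, for Ctsk in DKO 4.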

Other observations

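The genes nearest to the other members were looked up after the values were seen and are given as a description over 7 libraries. Ctsb was nearest to Anpep (root mean square difference of centred log2 CPM 0.061), Psap (0.062) and Gusb (0.072), and Ctsd to Psap (0.083), Anpep (0.095) and Cd300a (0.117). Psap, the precursor of the saposins that aid lysosomal lipid breakdown, was at 4286, 3329, 5140.2 and 2863 CPM in DKO 1 to DKO 4, against 3492, 3578 and 3148 CPM in ApoE 1 to ApoE 3, with DKO 3 highest and DKO 4 lowest, as for Ctsb and Ctsd. Ctsc was nearest to Cers6 (0.041), Ccdc88a (0.080) and Rnf150 (0.084), and Ctsz to Gbp5 (0.049), Slc15a4 (0.055) and Clcn7 (0.067). Ctsa was nearest to Papd4 (0.036), Rbm7 (0.036) and Ccnl1 (0.043), and Ctsh to Zfp788 (0.037), Dennd1a (0.039) and Tbc1d1 (0.049). Ctsa and Ctsh varied little, so small differences from other steady genes say little of a shared pattern.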
